A study of Bos taurus with 111 samples.

Results

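Transcript levels of 4 genes of the fat cell were followed in muscle of beef steers: CIDEC (ENSBTAG00000007969), FABP4 (ENSBTAG00000037526), TRARG1 (ENSBTAG00000019379) and ANGPTL8 (ENSBTAG00000009570). They were picked by identifier, as 4 of the 24616 genes in the count files, and were read in 104 libraries, from 77 of 83 steers. A further 7 libraries were set aside, 6 of them with fewer than 1000000 counts on genes. The other was left out by name and held much transcript of albumin (ALB), a liver product. It came from a Charolais (CH) steer of high residual feed intake (RFI) at grass. No sequence of these genes was analysed here.

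The study asked how breed and diet bear on gene expression in steers that differ in feed efficiency. Skeletal muscle was biopsied from CH, a beef breed, and Holstein-Friesian (HF), a dairy breed, in 3 feeding phases of 70 d each. In order of time, these were a high concentrate diet (H1), zero-grazed grass, meaning cut grass fed indoors (ZG), and the high concentrate diet again (H2). The phases were not back to back, and per the study H2 began about a year after H1 began. The phase numbers in the sample titles skip a number between H1 and ZG. Within each breed and phase, steers were ranked on RFI, the gap between the feed an animal ate and the feed predicted from its weight and gain and, per the labels, its change in back fat, and those at the extremes were sampled as L-RFI, the efficient steers, or H-RFI, the inefficient ones. For CH the kept libraries were 10 H-RFI against 8 L-RFI at H1, 8 against 9 at ZG and 7 against 7 at H2. For HF they were 11 against 9 at H1, 10 against 9 at ZG and 8 against 8 at H2. CH steers averaged 283 d of age and 395 kg at the start of H1, 519 kg at the start of ZG and 675 kg at the start of H2. HF steers averaged 306 d and 294 kg at the start of H1, and 441 kg and 611 kg at the start of the later phases. The study's methods give slightly different means for some of these ages and weights. Diet was thus tied to age and weight, and an effect of ration cannot be told apart from one of growth. Breeds differed in weight as well as in genotype.

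All 4 genes are known from the adipocyte. CIDEC coats the lipid droplet and drives the fusion of small droplets into larger ones. FABP4 is the fatty acid carrier of the adipocyte cytosol. TRARG1 takes part in the movement of the glucose transporter GLUT4 to the cell surface in response to insulin, and ANGPTL8 is a feeding-induced hormone of fat and liver that acts with related proteins to set where lipoprotein lipase releases fatty acids. In muscle, transcripts of this kind are ordinarily read as coming from fat cells that lie between the fibres, although in a bulk biopsy fewer cells of a type and less RNA per cell cannot be told apart.

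Kept libraries held between 2201765 and 52552057 counts on genes, with a median of 15852125.5. At the median depth a count of 3, the floor used here, corresponded to 0.189 counts per 1000000 counts on genes (CPM), before scaling. All levels given for kept libraries are CPM scaled between libraries by TMM factors. CH-H1 libraries were deeper in H-RFI (median 26941923) than in L-RFI (median 13500619) steers. The lists of muscle fibre and of further adipocyte genes could not be matched to identifiers, so the tissue label was not checked with them. Among striated muscle genes that could be matched, chosen after the lists failed, MYH6 had a median of 297 CPM and MYH4 one of 3.01 CPM. Of the marker lists that could be matched, 6 of 10 hepatocyte genes had a summed level between 21.4 and 9994 CPM, and 5 of 8 leukocyte genes one between 1.30 and 88.7 CPM. No gene of either list was at 0 throughout a group.

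Each of the 4 genes was scarce and very uneven from steer to steer. Over the 104 libraries, CIDEC ran from 0.118 to 58.1 CPM around a median of 3.19 CPM. FABP4 ran from 0 to 71.4 CPM around a median of 3.85 CPM, TRARG1 from 0.0788 to 39.3 CPM around 2.39 CPM, and ANGPTL8 from 0 to 30.6 CPM around 0.814 CPM. A few animals carried much of the signal: the 10 libraries with the highest level held 46.5% of the summed CPM of CIDEC, 44.6% of FABP4, 45.2% of TRARG1 and 53.7% of ANGPTL8. Of the 29 libraries with FABP4 above 10 CPM, 24 were HF, as were 19 of 23 for CIDEC, 16 of 19 for TRARG1 and 3 of 3 for ANGPTL8. The estimated coefficient of variation within groups lay between 0.940 for TRARG1 and 0.994 for CIDEC, against a median of 0.389 over the 11947 genes tested, and each of the 4 varied more than at least 97.3% of genes. ANGPTL8 had the fewest reads, with a median of 12.0 counts per library and fewer than 3 counts in 8 libraries.

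**Figure D1:**
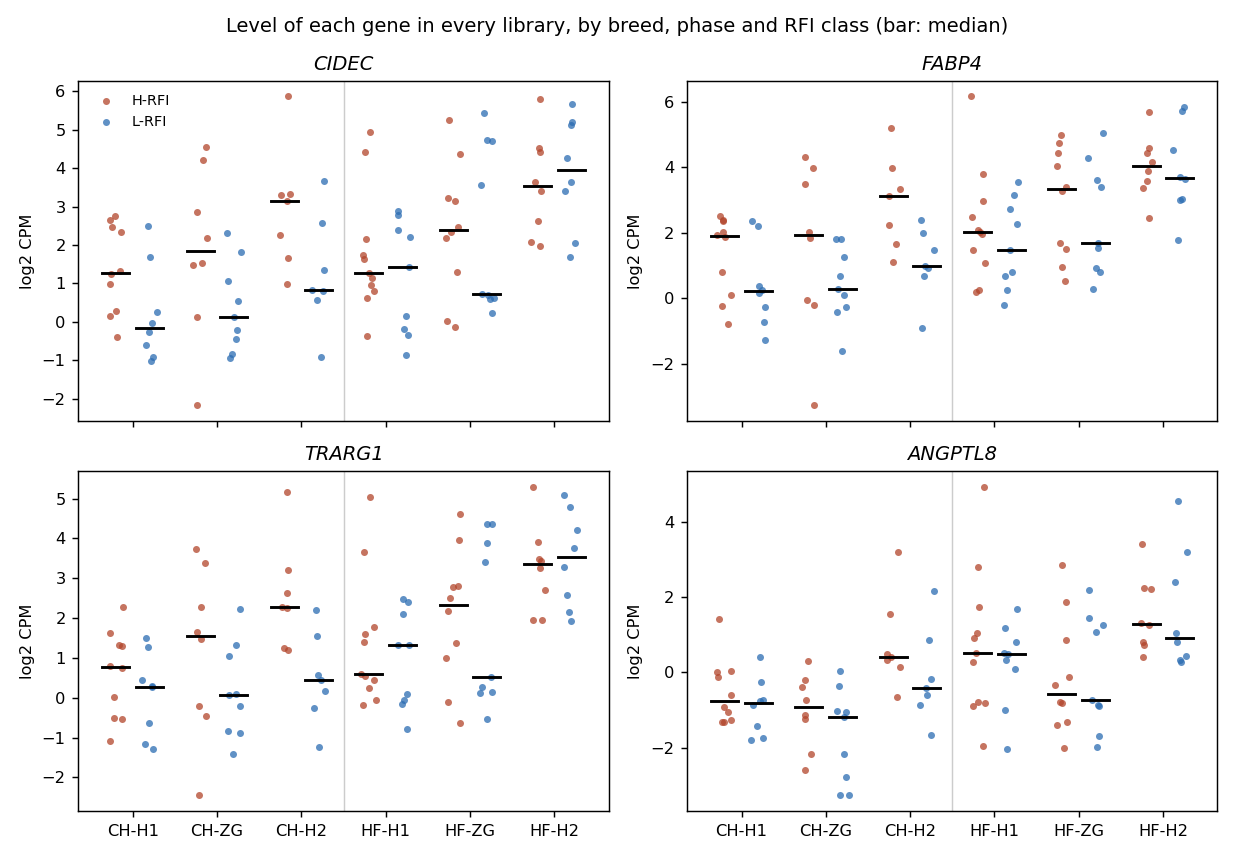
Level of each gene on the log2 CPM scale (prior count of 2) in every kept library, by breed and phase, with H-RFI in red and L-RFI in blue and a bar at each group's median. The highest medians of CIDEC, FABP4, TRARG1 and ANGPTL8 are those of HF-H2, and the H-RFI and L-RFI points overlap in all 6 breed and phase pairs.

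The first comparison was between breeds within a phase. The study's lists that hold the 4 genes compared RFI classes, not breeds, although they drew on these same libraries. All 4 genes had higher estimates in HF than in CH in each phase. The difference passed the test, an adjusted p under 0.1 with a fold change above 1.5, for ANGPTL8 in H1, for all 4 genes in ZG and for FABP4 in H2.

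In H1, CIDEC lay between 0.392 and 6.65 CPM in CH (median 1.49, n = 18) and between 0.449 and 30.6 CPM in HF (median 2.45, n = 20). ANGPTL8 lay between 0.186 and 2.58 CPM in CH (median 0.465) and between 0.140 and 30.6 CPM in HF (median 1.30). Of the 20 HF libraries, 16 were above the CH median of ANGPTL8 and 4 were above the highest CH library, so the breeds overlapped. The ANGPTL8 difference was 1.91 on the log2 scale (SE 0.50, adjusted p = 0.0735, edgeR quasi-likelihood test). FABP4 (1.49 ± 0.49 SE, adjusted p = 0.229), TRARG1 (1.28 ± 0.49, 0.333) and CIDEC (0.98 ± 0.52, 0.610) did not pass. Thus 1 of the 4 genes was called in a contrast that called 0.393% of all genes. The ANGPTL8 call was lost when any of 10 steers was left out, most of all the H-RFI steer 5613, in which ANGPTL8 reached 30.6 CPM and FABP4 71.4 CPM. Without that steer the ANGPTL8 estimate was 1.23 (adjusted p = 0.335). The 6 hepatocyte genes had estimates between 1.196 for HPX and 1.62 for AHSG in the same direction, none of them called (adjusted p of at least 0.176). The fit was repeated without the 4 libraries in which their summed level was above 1000 CPM, an alternative chosen after seeing the data. It called 1 of the 4 members for breed in H1, and 31 of 11864 genes. Their part in the ANGPTL8 difference was not tested further. With limma voom and the steer as a block, ANGPTL8 was also not called (adjusted p = 0.585), nor was it with voom and no block.

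In ZG, FABP4 lay between 0 and 19.9 CPM in CH (median 1.49, n = 17) and between 1.11 and 32.8 CPM in HF (median 9.54, n = 19). TRARG1 lay between 0.0788 and 13.1 CPM in CH (median 0.965) and between 0.539 and 24.5 CPM in HF (median 4.39). CIDEC lay between 0.118 and 23.2 CPM in CH (median 2.00) and between 0.809 and 43.2 CPM in HF (median 4.94). The breeds overlapped for all 3 genes, and 17 of the 19 HF libraries were above the CH median of FABP4, 16 above that of TRARG1 and 12 above that of CIDEC. ANGPTL8 reached at most 1.12 CPM in CH (median 0.355) and reached 7.20 CPM in HF (median 0.504), where 14 of the 19 libraries were above the CH median. Differences on the log2 scale were 1.95 for ANGPTL8 (SE 0.55, adjusted p = 0.0231), 1.68 for FABP4 (SE 0.50, adjusted p = 0.0335), 1.62 for TRARG1 (SE 0.50, adjusted p = 0.0444) and 1.69 for CIDEC (SE 0.54, adjusted p = 0.0499). This was 4 of 4 genes in a contrast that called 4.45% of all genes. Most genes called there ran the same way, with 461 of 532 higher in HF and 71 lower. The CIDEC call was lost without steer 2064, an L-RFI steer with 43.2 CPM, and both it and the ANGPTL8 call were lost without steer 5616, described next.

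Hepatocyte genes moved with breed in the same contrast. All 6 matched genes of that list (ALB, FGB, FGG, AHSG, HPX and ORM1, which encode plasma proteins) were called higher in HF at grass, by 1.79 for AHSG to 2.49 for FGG on the log2 scale. Their summed level ran from 28.4 to 678 CPM in CH-ZG (median 87.4) and from 22.8 to 9994 CPM in HF-ZG (median 196). The top value belonged to a single HF-ZG H-RFI library, that of steer 5616, whose ANGPTL8 level of 7.20 CPM was also the highest of its breed and phase. With this library dropped, an alternative chosen after seeing the data, 140 genes in place of 532 passed and none of the 6 hepatocyte genes did (adjusted p of 0.189 for FGB, the lowest, with log2 differences between 0.89 and 1.24). FABP4 (1.65, adjusted p = 0.0882) and TRARG1 (1.62, adjusted p = 0.0988) were then still called, whereas ANGPTL8 (1.59, adjusted p = 0.132) and CIDEC (1.69, adjusted p = 0.108) were not. The part of hepatocyte transcripts in the ANGPTL8 values was not tested further. None of the 5 leukocyte genes was called by breed in any phase, but all 5 estimates were higher in HF each time, with a median of 0.85 on the log2 scale in H1, 0.95 in ZG and 1.498 in H2. The smallest adjusted p in ZG was that of CD53 (0.141), a leukocyte surface protein, followed by LYZ, the lysozyme gene (0.315). With voom and the steer as a block, FABP4 alone was called in ZG, and the adjusted p was 0.135 for TRARG1, 0.180 for CIDEC and 0.189 for ANGPTL8.

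In H2, FABP4 lay between 0.428 and 36.7 CPM in CH (median 3.46, n = 14) and between 3.34 and 57.7 CPM in HF (median 13.9, n = 16). Of the 16 HF libraries, 15 were above the CH median. The FABP4 difference was 2.03 on the log2 scale (SE 0.55, adjusted p = 0.0804). TRARG1 (1.71 ± 0.54 SE, adjusted p = 0.167), ANGPTL8 (1.595 ± 0.55, 0.221) and CIDEC (1.57 ± 0.58, 0.281) did not pass, although every one of the 16 HF libraries was above the CH median of TRARG1 and of ANGPTL8. This was 1 of 4 genes where 0.552% of all genes were called. One CH H-RFI steer, 1840, held the highest CH value of each gene in H2 (58.1 CPM for CIDEC and 35.7 CPM for TRARG1). Without it all 4 genes were called, with log2 differences between 2.00 and 2.33 and adjusted p of 0.0412 for FABP4, 0.0541 for TRARG1, and 0.0799 for both CIDEC and ANGPTL8. The FABP4 call was lost in turn when any of 16 other steers was left out, with an adjusted p of at most 0.169, and with voom and the steer as a block (adjusted p = 0.129). Leukocyte genes had estimates of like size in H2, such as 1.498 for CD53 (adjusted p = 0.150) and 1.71 for S100A12, a neutrophil calcium-binding protein (adjusted p = 0.228), and hepatocyte genes had a median of 0.86. Without the 4 libraries above 1000 CPM in hepatocyte genes, 1 of the 4 members was called in H2, and 79 of 11864 genes. The part of other cells in the breed difference was not tested further. A test of whether the breed difference varied among phases called 0 of the 4 genes and 0% of all genes, with adjusted p between 0.931 and 0.971 for the members (edgeR F test). At an unadjusted p under 0.05, 524 genes differed and none of the 4 did, and voom called 0 genes as well, with or without the block.

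The second comparison was between phases within a breed. In HF, CIDEC, FABP4 and TRARG1 rose from H1 to H2, and ANGPTL8 rose from ZG to H2. In CH no difference between phases passed for any of the 4 genes.

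From H1 to H2 in HF, the median of CIDEC went from 2.45 CPM to 12.3 CPM and its lowest value from 0.449 to 3.12 CPM. TRARG1 had medians of 1.89 CPM in H1 (range 0.477 to 32.5) and 10.2 CPM in H2 (range 3.68 to 39.3). FABP4 had medians of 3.88 CPM in H1 (range 0.758 to 71.4) and 13.9 CPM in H2 (range 3.34 to 57.7). The phases overlapped, but all 16 libraries of H2 were above the H1 median of CIDEC and of TRARG1, as were 15 of 16 for FABP4. The rise was 2.10 on the log2 scale for CIDEC (SE 0.52, adjusted p = 0.00385), 1.91 for TRARG1 (SE 0.48, adjusted p = 0.00481) and 1.63 for FABP4 (SE 0.48, adjusted p = 0.0148). ANGPTL8 (0.91, SE 0.47, adjusted p = 0.175) did not pass. These were 3 of 4 genes in the contrast with the widest response, in which 11.2% of all genes were called. Each of the 3 calls held with any single steer left out. Without steer 5613 ANGPTL8 was called as well (1.61, adjusted p = 0.00850), as it was with voom and the steer as a block (1.41, adjusted p = 0.0127).

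The passage over grass was not the same for ANGPTL8 as for the other genes in its estimates. In HF, the estimates from H1 to ZG were 1.29 for CIDEC (SE 0.50, adjusted p = 0.330), 1.04 for TRARG1 (SE 0.47, adjusted p = 0.477), 0.68 for FABP4 (SE 0.46, adjusted p = 0.779) and -0.64 for ANGPTL8 (SE 0.47, adjusted p = 0.822). None passed, where 0.578% of all genes were called. Without steer 5613, CIDEC (1.71, adjusted p = 0.0886) and TRARG1 (1.63, adjusted p = 0.0660) were called and the ANGPTL8 estimate turned to 0.11. From ZG to H2, ANGPTL8 went from a median of 0.504 CPM (range 0.144 to 7.20) to 2.13 CPM (range 1.11 to 23.4), with all 16 libraries of H2 above the ZG median. Its rise was 1.55 on the log2 scale (SE 0.48, adjusted p = 0.0397). CIDEC (0.81, SE 0.51, adjusted p = 0.347), TRARG1 (0.87, SE 0.47, adjusted p = 0.275) and FABP4 (0.95, SE 0.48, adjusted p = 0.235) did not pass, so that 1 of 4 genes was called where 4.69% of all genes were. The ANGPTL8 call was lost when steer 1657 or steer 5609 was left out, with an estimate down to 1.12 and an adjusted p up to 0.164. With voom and the steer as a block all 4 genes were called in this contrast (adjusted p of 0.0295 for TRARG1, 0.0538 for CIDEC and 0.0761 for FABP4). Whether ANGPTL8 differed from the other 3 genes in its response to phase was not tested.

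In CH, CIDEC had medians of 1.49, 2.00 and 3.85 CPM in H1, ZG and H2. FABP4 had medians of 1.41, 1.49 and 3.46 CPM, TRARG1 of 1.19, 0.965 and 2.55 CPM, and ANGPTL8 of 0.465, 0.355 and 1.08 CPM. The highest median of each gene was that of H2, and the phases overlapped for all 4. From H1 to H2 the log2 differences were 1.499 for CIDEC (SE 0.57, adjusted p = 0.192), 1.48 for TRARG1 (SE 0.53, adjusted p = 0.159), 1.22 for ANGPTL8 (SE 0.55, adjusted p = 0.318) and 1.09 for FABP4 (SE 0.53, adjusted p = 0.378). None of the 4 was called where 1.78% of all genes were, although each had an unadjusted p under 0.05. Without steer 1840 the estimates were 0.96 for CIDEC, 1.02 for TRARG1, 0.81 for ANGPTL8 and 0.78 for FABP4, whereas DESeq2 with all steers called CIDEC (adjusted p = 0.0560) and TRARG1 (adjusted p = 0.0935). From H1 to ZG the estimates lay between -0.68 for ANGPTL8 and 0.70 for TRARG1, and 0 of 4 genes were called where 2.49% of all genes were. For TRARG1 the order of these 2 medians, 1.19 and 0.965 CPM, was the reverse of the fitted estimate. From ZG to H2 they lay between 0.60 for FABP4 and 1.91 for ANGPTL8, and 0 of 4 were called where 0.829% of all genes were. Without steer 1840 they were 0.29 for FABP4, 0.32 for TRARG1, 0.39 for CIDEC and 1.49 for ANGPTL8. The ANGPTL8 difference with all steers (SE 0.60, adjusted p = 0.134) was called by DESeq2 (adjusted p = 0.0189).

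**Figure D2:**
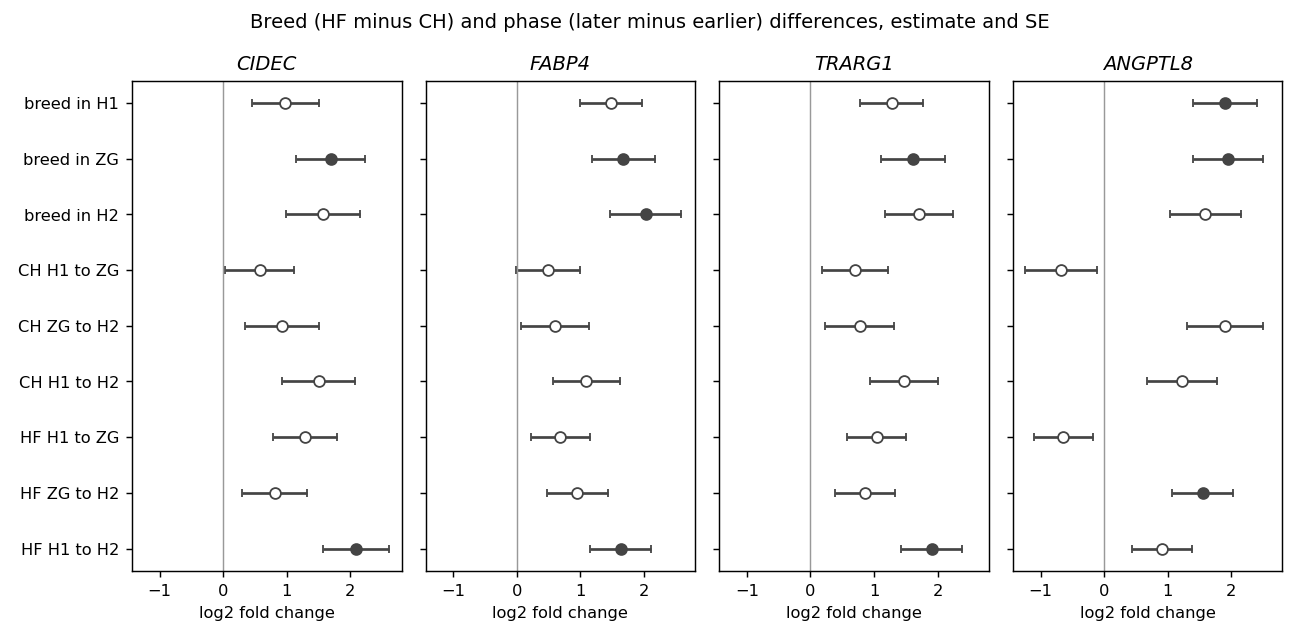
Log2 fold change and SE of each gene for breed (HF minus CH) within a phase and for phase (later minus earlier) within a breed, from the model of 12 group means, filled where called. All breed estimates lie above 0. The estimates from H1 to ZG, none of them called, lie below 0 for ANGPTL8 and above 0 for CIDEC, FABP4 and TRARG1.

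Ranked by the mean log2 CPM of the 4 genes, the 12 groups ran from HF-H2 L-RFI (median 3.02, SD 1.35) and HF-H2 H-RFI (2.88, SD 1.05) at the top to CH-H1 L-RFI (-0.30, SD 1.01) and CH-ZG L-RFI (-0.47, SD 0.94) at the bottom. CH-H2 H-RFI (2.32, SD 1.37) came next, above every HF group outside H2. Each group's median lay within 1 SD of that of its neighbours in this order.

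The third comparison was between RFI classes, and the study had picked the 4 genes on it. All 4 had been listed for RFI in HF-H1. CIDEC had been listed also in every phase of CH, and FABP4 and TRARG1 in its later phases, all on this same series. A direction seen here in those comparisons is therefore not independent evidence. The study describes more steers per class than this series holds, and its exact test had called genes in all 6 comparisons. With the edgeR quasi-likelihood test no gene at all was called in any of the 6 comparisons (0% of genes), and none of the 4 was. The edgeR exact test called 2 genes in CH-H1, 1 in CH-H2 and 0 in the others, and DESeq2 called 2 in CH-H1, 2 in CH-H2, 1 in HF-ZG and 0 in the others, none of them among the 4. In every pair but HF-ZG, the quasi-likelihood test gave an unadjusted p under 0.05 to a smaller share of genes than 0.05. That is fewer than no difference at all would give, so a high adjusted p there does not show that a difference is absent.

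In CH-H2, FABP4 lay between 2.03 and 36.7 CPM in H-RFI steers (median 8.61, n = 7) and between 0.428 and 5.15 CPM in L-RFI steers (median 1.90, n = 7). All 7 L-RFI libraries were below the H-RFI median of FABP4 and of TRARG1, and 4 and 5 of them were below the lowest H-RFI library, yet the classes overlapped. TRARG1 had medians of 4.72 CPM in H-RFI (range 2.20 to 35.7) and 1.26 CPM in L-RFI (range 0.321 to 4.48). CIDEC had medians of 8.82 CPM in H-RFI (range 1.86 to 58.1) and 1.67 CPM in L-RFI (range 0.428 to 12.5). The L-RFI minus H-RFI estimates were -2.33 for FABP4 (SE 0.62), -2.34 for TRARG1 (SE 0.65) and -2.14 for CIDEC (SE 0.79), all with an adjusted p of 1.00. At an unadjusted p under 0.05, 89 of the 10070 genes tested differed, these 3 among them. Without steer 1840 the estimates were -1.67, -1.40 and -1.01. ANGPTL8 was below the filter on low counts and, in the fit with no such filter, differed by -1.36 (SE 0.65, adjusted p = 1.00).

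In CH-ZG, CIDEC lay between 0.118 and 23.2 CPM in H-RFI steers (median 3.61) and between 0.420 and 4.86 CPM in L-RFI steers (median 0.992). FABP4 had medians of 3.75 CPM in H-RFI (range 0 to 19.9) and 1.11 CPM in L-RFI (range 0.227 to 3.42). The L-RFI range of both genes lay inside the H-RFI range. All 9 L-RFI libraries were below the H-RFI median of FABP4, and 8 of 9 were below that of CIDEC. Estimates were -2.29 for CIDEC (SE 0.72) and -2.14 for FABP4 (SE 0.74), each with an adjusted p of 1.00, and 79 of 9823 genes had an unadjusted p under 0.05. TRARG1 (-1.78, SE 0.67) and ANGPTL8 (-0.32, SE 0.59), with an adjusted p of 1.00 for each, were measured without the filter on low counts, and ANGPTL8 was at 0 in 2 of the 9 L-RFI libraries.

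In CH-H1 the estimates were smaller. CIDEC had medians of 2.33 CPM in H-RFI (range 0.653 to 6.65) and 0.802 CPM in L-RFI (range 0.392 to 5.53), and FABP4 had medians of 3.64 CPM (range 0.481 to 5.59) and 1.06 CPM (range 0.309 to 5.01). For both genes 6 of the 8 L-RFI libraries were below the H-RFI median. Estimates were -1.004 for CIDEC (SE 0.54), -0.74 for FABP4 (SE 0.53) and -0.56 for TRARG1 (SE 0.48), with an adjusted p of 0.999 each, and -0.52 for ANGPTL8 (SE 0.47, adjusted p = 1.00) without the filter. Here 216 of 10596 genes had an unadjusted p under 0.05, and the H-RFI libraries were about 2 times as deep at the median.

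In HF-H1, ANGPTL8 lay between 0.156 and 30.6 CPM in H-RFI steers (median 1.32) and between 0.140 and 3.11 CPM in L-RFI steers (median 1.29). The medians of CIDEC were 2.33 CPM in H-RFI and 2.58 CPM in L-RFI, those of TRARG1 were 1.40 CPM and 2.38 CPM, and those of FABP4 were 3.95 CPM and 2.65 CPM. For CIDEC and TRARG1 the order of the medians was the reverse of the fitted estimates. These estimates were -1.78 for ANGPTL8 (SE 0.80), -1.33 for FABP4 (SE 0.72), -1.23 for TRARG1 (SE 0.70) and -1.09 for CIDEC (SE 0.70), all with an adjusted p of 1.00, where 317 of 10812 genes had an unadjusted p under 0.05. They rested on steer 5613: without it they were -0.42, -0.09, -0.21 and -0.40 in the same order.

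In HF-ZG the L-RFI steers formed 2 sets. CIDEC lay between 1.08 and 1.54 CPM in 5 of the 9 steers and between 11.8 and 43.2 CPM in the other 4, and the same 4 steers had the highest FABP4 (10.4 to 32.8 CPM), TRARG1 (10.6 to 20.6 CPM) and ANGPTL8 (1.99 to 4.45 CPM) of their group. H-RFI steers ranged from 0.809 to 37.8 CPM for CIDEC (median 5.16), with 6 of the 10 between 2.37 and 9.21 CPM. The L-RFI medians were 1.54 CPM for CIDEC, 1.34 CPM for TRARG1, 3.11 CPM for FABP4 and 0.504 CPM for ANGPTL8, against H-RFI medians of 5.16, 4.96, 9.99 and 0.581 CPM. For CIDEC and TRARG1 this order was again the reverse of the fitted estimates. Estimates were 0.37 for CIDEC (SE 0.76, adjusted p = 0.757), 0.12 for TRARG1 (SE 0.72, adjusted p = 0.919), -0.48 for FABP4 (SE 0.66, adjusted p = 0.639) and, without the filter, -0.28 for ANGPTL8 (SE 0.69, adjusted p = 0.835), with 1227 of 10571 genes at an unadjusted p under 0.05. In HF-H2, where levels were highest, the estimates were 0.31 for CIDEC (SE 0.61), 0.21 for TRARG1 (SE 0.53), 0.16 for FABP4 (SE 0.54) and 0.62 for ANGPTL8 (SE 0.66), with an adjusted p of 1.00 for each, and 72 of 9936 genes had an unadjusted p under 0.05. Medians in L-RFI were 15.8 CPM for CIDEC, 11.6 CPM for TRARG1, 12.6 CPM for FABP4 and 1.81 CPM for ANGPTL8. Those in H-RFI were 11.4, 10.1, 16.3 and 2.34 CPM in the same order. For FABP4 and ANGPTL8 the medians thus ran against the fitted estimates. Without steer 1657, an L-RFI steer with ANGPTL8 at 23.4 CPM, the estimates were -0.23 for ANGPTL8, -0.21 for FABP4 and -0.0826 for TRARG1. That of CIDEC stayed above 0 with any single steer left out.

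Averaged over the 6 comparisons, L-RFI minus H-RFI was -1.14 for FABP4 (SE 0.29, adjusted p = 0.575), -0.98 for CIDEC (SE 0.31, adjusted p = 0.692), -0.93 for TRARG1 (SE 0.29, adjusted p = 0.692) and -0.61 for ANGPTL8 (SE 0.30, adjusted p = 0.692). None of the 4 was called and 0 of 11947 genes were (0%). At an unadjusted p under 0.05, 688 genes differed, with the 4 among them. The average includes the comparisons on which the study had listed the 4 genes. Its direction, and their place among these genes, are therefore not independent evidence. DESeq2 called 0 genes, and voom called 0 with the steer as a block and 1 without it, which was none of the 4. The estimates stayed below 0 with any single steer left out. A test of whether the RFI effect differed among the comparisons called 0% of genes and none of the 4, with adjusted p of 1.00 and with 238 genes at an unadjusted p under 0.05, none of the 4 among them. Voom called 0 genes there too.

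**Figure D3:**
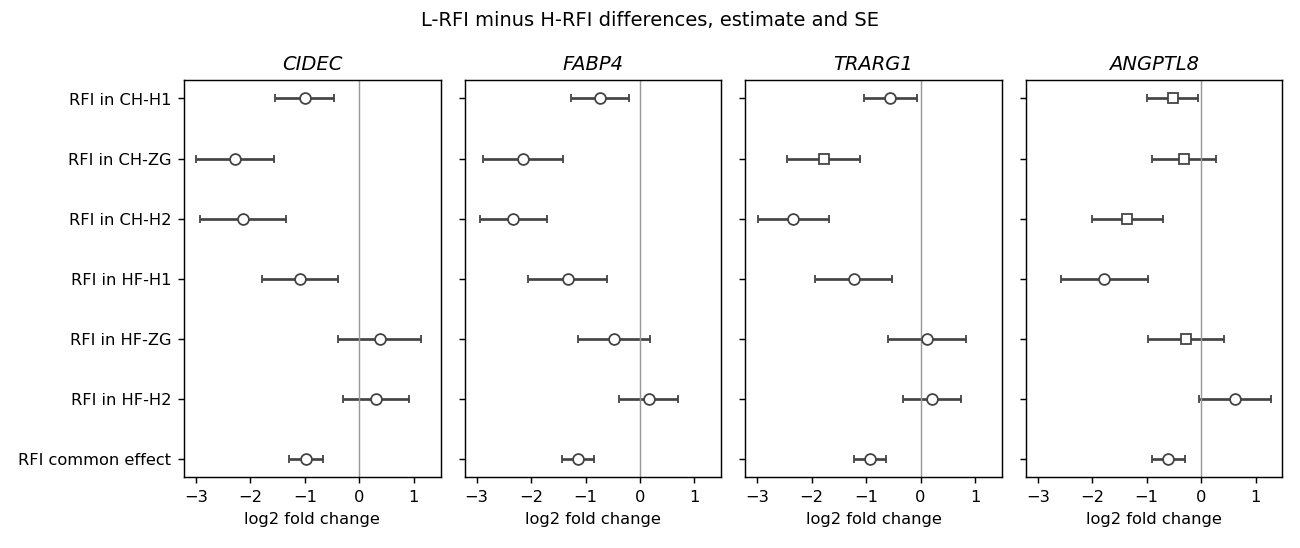
Log2 fold change and SE for L-RFI minus H-RFI in each breed and phase pair and averaged over the pairs. Squares mark values from the fit without a filter on low counts, and no symbol is filled because no difference was called. The estimates in CH and in HF-H1 lie below 0, and those in HF-H2 lie above 0 by less than their SE.

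There were 8 steers that had been sampled as L-RFI in one phase and as H-RFI in another. After subtraction of the breed and phase mean, CIDEC was lower in the L-RFI phase of 2 of these 8 steers and higher in 6, with a median difference of 1.42 on the log2 scale (range -1.17 to 2.78). FABP4, TRARG1 and ANGPTL8 were each lower in 3 and higher in 5 of the 8. These steers also differed in phase between the classes, and no test was made of them.

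The 4 genes varied together from steer to steer. With 1 library per steer (n = 77), log2 CPM of CIDEC and TRARG1 had a Pearson r of 0.966 and a Spearman rho of 0.948. FABP4 had r = 0.936 (rho = 0.927) with TRARG1 and r = 0.920 (rho = 0.904) with CIDEC. ANGPTL8 was less closely tied, with r = 0.738 (rho = 0.702) to FABP4, r = 0.709 (rho = 0.663) to TRARG1 and r = 0.706 (rho = 0.683) to CIDEC. Each of the 6 coefficients, as r and as rho, had a two-sided permutation p of 1e-05, the smallest that 100000 permutations can give, which stayed 1e-05 after Benjamini-Hochberg adjustment over the 6 pairs. Without the 2 steers farthest from the median, r ran from 0.662 to 0.961. After subtraction of the group mean it ran from 0.658 to 0.957. Within the 6 breed and phase sets of 14 to 20 libraries, r of CIDEC with TRARG1 ran from 0.809 to 0.976. That of TRARG1 with ANGPTL8 ran from 0.279 in CH-ZG to 0.856 in HF-H1. In CH-ZG the median of ANGPTL8 was 0.355 CPM, and 2 libraries were at 0. ANGPTL8 had the fewest reads of the 4 genes, and the part of counting error in its looser tie was not tested. All genes of a library share its depth and its scaling. The study had listed all 4 genes for RFI in HF-H1 on this same series, so their covariation is not independent of that choice. The permutations moved values between breeds and phases as well as within them.

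**Figure D4:**
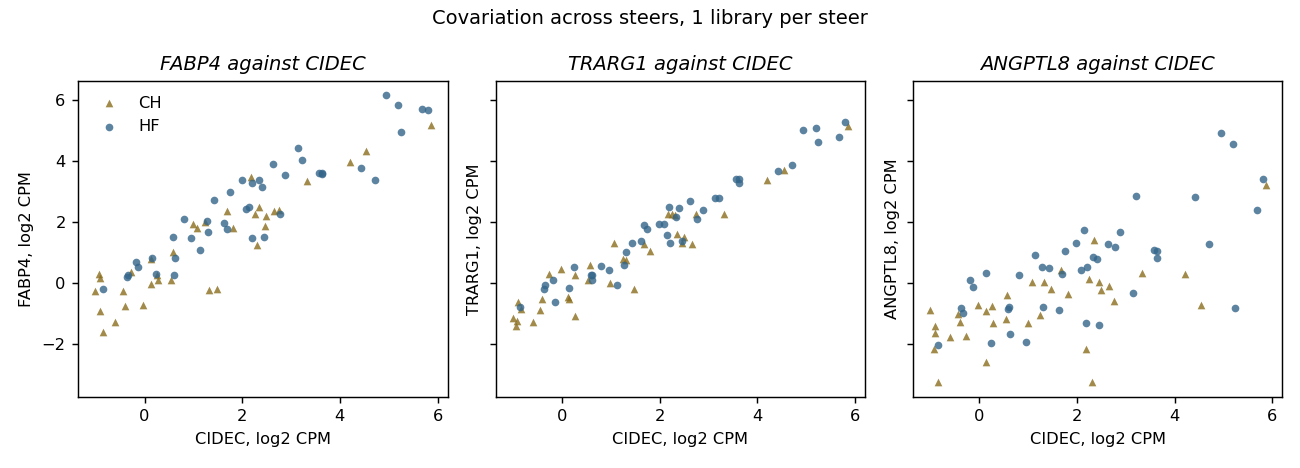
Log2 CPM of FABP4, TRARG1 and ANGPTL8 against that of CIDEC, with 1 point per steer (n = 77), triangles for CH and circles for HF. FABP4 (r = 0.920) and TRARG1 (r = 0.966) follow CIDEC closely in both breeds, and ANGPTL8 (r = 0.706) scatters more.

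No relation was detected between a steer's level in one phase and its level in the next. For the 25 steers with 2 or more kept libraries, group-centred log2 CPM in the earliest and the next library had r = -0.12 for CIDEC (rho = -0.05), -0.09 for FABP4 (rho = -0.07), -0.03 for TRARG1 (rho = 0.04) and -0.03 for ANGPTL8 (rho = 0.12). Two-sided permutation p adjusted over the 4 genes was 0.906 for each r and 0.856 for each rho, and the raw p of r ran from 0.554 for CIDEC to 0.906 for ANGPTL8. Steer 5613 went from 30.6 CPM of CIDEC, 71.4 CPM of FABP4 and 30.6 CPM of ANGPTL8 in H1 to 0.914, 1.83 and 0.144 CPM in ZG. Without the 2 steers farthest from the median, r was between 0.10 for CIDEC and 0.26 for TRARG1.

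Symbols were at hand for 150 of the 11947 tested genes, taken from the study's own lists of RFI genes, so the genes named as most like the 4 come from genes chosen on these samples. Over the 104 libraries, the named genes with the highest Spearman rho to the mean log2 CPM of the 4 were THRSP, a regulator of fatty acid synthesis (0.930), PCK2, the mitochondrial phosphoenolpyruvate carboxykinase (0.873), FASN, the fatty acid synthase (0.814), ACSM1, a medium-chain acyl-CoA synthetase (0.761), ELOVL6, a fatty acid elongase (0.757), and CKB, brain-type creatine kinase (0.732). THRSP ranked first of all genes, named or not. The remaining 4 of the 10, GSTM3, PLG, FGG and FCN1, had a rho between 0.357 and 0.367. Of the 11943 genes other than the 4, 64 had a rho above 0.5 and 22 had one above 0.7, against a median of -0.00133. Taken singly, the 3 named genes nearest to CIDEC were TRARG1 (0.932), FABP4 (0.924) and THRSP (0.865). Those nearest to FABP4 were THRSP (0.929), CIDEC (0.924) and TRARG1 (0.923), and those nearest to TRARG1 were CIDEC (0.932), FABP4 (0.923) and THRSP (0.877). ANGPTL8 was nearest to THRSP (0.798), PCK2 (0.769) and CIDEC (0.755).

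Of the other genes of fat synthesis and insulin action on the gene lists, 3 of 15 lipogenic genes (THRSP, FASN and ELOVL6) and 1 of 12 genes of insulin signalling and GLUT4 traffic (FOXO1, a transcription factor that insulin keeps out of the nucleus) could be matched. No gene on the list of lipoprotein lipase and its ANGPTL partners could be. THRSP and ELOVL6 were called higher in HF in ZG (log2 differences of 1.99 and 1.66, adjusted p of 0.0387 and 0.0268) and in H2 (2.44 and 1.96, adjusted p of 0.0807 and 0.0742). FASN was not called in either (0.86 in ZG with an adjusted p of 0.182, and 0.79 in H2 with one of 0.520). THRSP also rose from H1 to H2 in HF (1.46, adjusted p = 0.0672), while ELOVL6 (0.48, adjusted p = 0.482) and FASN (0.72, adjusted p = 0.159) did not pass. FOXO1 was called higher in HF in H1 (1.49, adjusted p = 0.00768), where ANGPTL8 was also called, and fell from H1 to H2 in HF by 1.31 on the log2 scale (adjusted p = 0.00237). In the remaining breed and phase contrasts, and for RFI averaged over the pairs, none of the 4 was called. For RFI the smallest unadjusted p among the lipogenic genes belonged to THRSP (-1.29, adjusted p = 0.596) and ELOVL6 (-0.92, adjusted p = 0.692), and FOXO1 differed by -0.27 (adjusted p = 0.692).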

How the data were processed

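Messenger RNA purified from total RNA of muscle biopsies was sequenced by the authors (stranded TruSeq libraries), who deposited 1 count file per library: raw counts of reads per gene as STAR wrote them, unstranded and for each strand. Per the labels' processing notes, FastQC 0.11.5 and STAR 2.5.1 were used. These notes name build UMD3.1 and the study's methods ARS-UCD1.2, so no coordinate is given. Reverse-strand counts were used here, which held a median of 99.0% of stranded gene counts. Reads assigned to no gene or to several, a median of 11.6% of reads, were left out of library sizes. Symbols came from the study's supplementary lists (151 identifiers in the files).

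Levels are CPM scaled by TMM, and log2 CPM has a prior count of 2. RFI classes were compared within each breed and phase by the edgeR 4.0.16 quasi-likelihood test on genes with at least 1 CPM in 50% of libraries. A model of 12 group means on genes with at least 1 CPM in 7 libraries, the smallest group, gave the other contrasts. Values of p were adjusted over all genes by the Benjamini-Hochberg method, with calls at an adjusted p under 0.1 and a fold change above 1.5. An adjusted p printed as 1.00 is rounded. Alternatives were the exact test, DESeq2 1.42.0, limma 3.58.1 voom, RLE factors, other filters, unstranded counts, the libraries set aside put back, other thresholds and leaving out each steer. The scripts were tested on simulated data.

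Libraries with the same animal number in the labels were taken to come from the same animal. By this number, 25 of 77 steers were kept in 2 or 3 phases. The consensus correlation within steers was 0.110, which cannot show whether the pairing is right. The correlation of the 4 genes within steers was between -0.13 and 0.04. The 4 genes and the gene lists were chosen with earlier results of these data known. The text names the 4 genes, the 10 genes most like their mean and the 3 most like each (Spearman rho), and from each list the genes called, or else the 2 with the smallest p. Floors cover counting error only. No 2 libraries held identical values.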

Additional observations from a re-analysis of the deposited data

Results flagged for a closer look

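ANGPTL8 in CH-H1 H-RFI was at 2.58 CPM in steer 307, apart from the other 9 steers of its group, which lay between 0.295 and 0.924 CPM. The gap was judged on log2 CPM, on which it was the only such value among 44 sets of 1 gene in 1 group, and chance sets apart about 1 in 20 groups. On the CPM scale other sets held a library as far apart or farther, such as CIDEC in CH-H2 H-RFI, with steer 1840 at 58.1 CPM and the others between 1.86 and 9.90 CPM.

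The CH-ZG H-RFI library of steer 571, which was set aside by name, held ANGPTL8 at 93.3 CPM without TMM scaling (1289 of 13818659 counts). The highest kept library held 30.6 CPM with TMM scaling. The same library held 30 counts of CIDEC and 0 of FABP4 and of TRARG1, and ALB, the albumin gene, stood at 101449 CPM. A count of 0 allowed a level of up to 0.217 CPM, unscaled, there. In the 6 libraries set aside for low depth, ALB ran from 62.5 to 40086 CPM.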

How the results depend on the processing

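The number of the 4 genes called by breed moved from 1 in H1, 4 in ZG and 1 in H2 to 0, 2 and 0 with the libraries set aside put back, to 0, 1 and 0 with limma voom, to 2 in H1 and 2 in H2 with DESeq2, to 1 in ZG and 0 in H2 with each phase fitted alone, to 0 in H1 and H2 at an adjusted p under 0.05, to 0 in H1 and 3 in ZG with a filter of 1 CPM in 50% of libraries, which left ANGPTL8 untested, and to 2 in ZG without the library highest in hepatocyte genes or the 4 libraries above 1000 CPM, alternatives chosen after seeing the data. From ZG to H2 in HF the number moved from 1 to 0 with that filter, again because ANGPTL8 was not tested, to 0 with the libraries put back, and to 4 with voom. DESeq2 called 1 from ZG to H2 and 2 from H1 to H2 in CH. With the libraries put back, 2 genes were called for the RFI average and 1 for a difference in RFI effect between comparisons. With single steers left out the number ran from 0 to 1 (breed in H1, HF ZG to H2, CH H1 to H2 without steer 1100, CH ZG to H2 without steer 310 or 5613), 0 to 2 (HF H1 to ZG), 0 to 4 (breed in H2) and 2 to 4 (breed in ZG).

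Some directions turned, all but the first of them uncalled. With the libraries put back, ANGPTL8 was at -0.12 for breed in ZG, where it had been called, at 1.39 for CH H1 to ZG and at -0.16 for CH ZG to H2. FABP4 in CH H1 to ZG was at -0.0573 with voom and no replicate block and at -0.0885 with the steer as replicate block. With single steers left out, RFI estimates ran from -0.23 to 0.55 (TRARG1) and -0.10 to 0.90 (CIDEC) in HF-ZG, and from -0.23 to 1.08 (ANGPTL8), -0.21 to 0.53 (FABP4) and -0.0826 to 0.75 (TRARG1) in HF-H2, and ANGPTL8 in HF H1 to ZG from -0.99 to 0.11. The within-steer r was 0.0119 for ANGPTL8 without TMM factors, and 0.0606 for CIDEC, 0.264 for FABP4, 0.130 for TRARG1 and 0.0764 for ANGPTL8 with raw values. The cause of these changes was not tested. RLE factors, unstranded counts, no filter on low counts and no fold limit changed no call of the 4 genes, and the block changed none beyond those given in the report.

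Genes called over all settings but the single steers ranged from 22 to 128 for breed in H1, 68 to 849 in ZG and 1 to 102 in H2, from 45 to 134 for HF H1 to ZG, 373 to 1053 for HF ZG to H2 and 948 to 2616 for HF H1 to H2, from 163 to 809, 65 to 709 and 128 to 350 for the same steps in CH, and from 0 to 232 for the RFI average and 0 to 504 for its difference between comparisons.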
